A study of Homo sapiens with 21 samples.

Results

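The genes described here are 39 of the 57820 genes in the count table. They are 19 integrin subunit genes and 20 genes of focal adhesion proteins, and they were taken by gene name from a list, by a rule that uses no measured value. The list itself was chosen with earlier results of these data known, so it is not independent of them. All 39 passed the filter on low counts and were tested. RNA-seq was performed on A673, an Ewing sarcoma cell line driven by the fusion transcription factor EWS/FLI, in 7 groups of 3 libraries.

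Cells of every group carried a retroviral shRNA, delivered on day 1, and a retroviral cDNA vector, delivered on day 5, with drug selection by puromycin at 2 µg/ml and hygromycin at 400 µg/ml that ended on day 16. iLuc cells carried a control shRNA against luciferase and an empty vector, so that the endogenous fusion (endo-EF) was intact. iEF cells carried the shRNA against EWS/FLI and an empty vector. The other groups carried the iEF shRNA and a cDNA for a form of the fusion. WT-EF is full-length EWS/FLI, and Δ22 (delta22 in the labels) lacks the EWS portion. DAF has tyrosine-to-alanine substitutions in the EWS portion, mut9 has a shortened EWS portion, and DAF-mut9 carries tyrosine substitutions in the shortened form. The cDNAs are expressed from a viral vector and not from the native locus, and all groups come from 1 cell line. The study describes its replicates as repeated knockdown and rescue experiments, so the spread between replicates is that between such experiments in this line.

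Integrins are receptors of an alpha and a beta subunit that span the membrane and bind matrix proteins or other cells. The alpha subunit largely sets the ligand, and the short tail of the beta subunit is bound inside the cell by talin and kindlin, which switch the receptor on. Around the bound tails, focal adhesions assemble from actin linkers, kinases and LIM-domain scaffold proteins, and they tie the matrix to actin stress fibres and pass signals on adhesion and tension.

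Libraries held 32897083 to 46210348 counts each. Levels are in CPM, counts scaled to a common library size with TMM normalization, and 3 values in a row are always those of replicates 1, 2 and 3. The 39 genes together took 0.324 to 0.435% of the counts in the iLuc libraries and 0.787 to 0.814% in the iEF libraries. Their share was 0.502 to 0.572% in WT-EF, 0.639 to 0.699% in mut9, 0.827 to 0.838% in DAF, 0.828 to 0.898% in DAF-mut9 and 0.812 to 0.874% in Δ22. FLI1, which holds the 3′ part of the fusion transcript, was at 61.3, 60.6 and 89.05 CPM in iLuc and 20.8, 20.02 and 21.1 in iEF, a 3.37-fold difference (adjusted p = 1.33e-09). It was at 21.9 to 26.5 CPM in WT-EF (0.24 ± 0.13, adjusted p = 0.196 against iEF on the log2 scale), 28.4 to 33.4 in mut9, 35.1 to 39.8 in DAF, 34.6 to 37.3 in DAF-mut9 and 41.3 to 62 in Δ22, counts that do not separate native, fusion and cDNA transcripts. Of 6 Ewing sarcoma markers, CCND1 was at 1312 to 2602 CPM over all libraries, FCGRT at 99.1 to 119 in iLuc and 6.61 to 9.98 in iEF, NR0B1 at 44.3 to 60.05 and 10.9 to 23.2, and NKX2-2 at 7.87 to 11.01 and 0.747 to 1.38. CD99 was at 0 to 0.219 CPM, but it lies in the pseudoautosomal region that hg19 holds on both X and Y, and whether its reads were lost in counting was not tested. The 6 leukocyte markers summed to 0.752 to 0.873 CPM in iLuc, 1.32 to 1.69 in iEF, 0.933 to 1.10 in WT-EF, 2.09 to 2.36 in mut9, 3.59 to 3.98 in DAF, 2.11 to 2.80 in DAF-mut9 and 1.41 to 2.89 in Δ22. The 3 endothelial markers summed to 0.575 to 0.952 CPM in iLuc, 5.98 to 25.1 in iEF, 6.87 to 14.5 in WT-EF, 16.99 to 33.3 in mut9, 14.3 to 28.9 in DAF, 32.5 to 39.7 in DAF-mut9 and 24.3 to 40.5 in Δ22. The 4 epithelial markers summed to 29.5 to 35.8 CPM in iLuc, 39.1 to 43.01 in iEF, 32 to 38.8 in WT-EF, 35.7 to 54.7 in mut9, 62.4 to 75.6 in DAF, 48.4 to 63.6 in DAF-mut9 and 47.2 to 117 in Δ22. KDR made up most of the endothelial sum and KRT18 most of the epithelial sum, and CD3E was at 0 in iLuc and iEF. The part of these levels in the results was not tested. One iEF library, replicate 2, stood apart from the others in ITGB4, ITGA8, ITGA2, ITGA1, TNS3, ITGA9 and PXN, among other genes. Without it the size of some differences changed, as given below for part of the genes.

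The first question was which of these genes depend on the endogenous fusion. Of the 39 genes, 38 differed between iLuc and iEF cells, 35 of them lower and 3 higher with the fusion present (edgeR's quasi-likelihood test, Benjamini-Hochberg adjusted p below 0.05). Over all genes tested, 41.1% were called in this comparison, and among those with a mean of at least 5 CPM, 60.3% were called and 32.6% were lower. The median log2 fold change of the 39 was -1.93, a 3.81-fold lower level, beside 0.01 over all genes tested. All 19 integrin subunits changed by at least 2-fold, 17 down and 2 up, with a median of -3.08. Of the 20 focal adhesion proteins, 18 were lower and 1 was higher, and their median was -1.16. The 3 genes that were higher were ITGA7, a laminin-binding alpha subunit, ITGB2, the beta subunit of the leukocyte integrins, and TNS1, tensin 1. FERMT2, which codes for kindlin-2, was the 1 gene without a call (-0.22 ± 0.22, adjusted p = 0.452). All genes gave 18.7% higher and 22.4% lower between iLuc and iEF. At least a 2-fold change was called in 31 of the 39 (25.9% of all genes), and 36 of the 39 had no overlap between the groups' libraries (42.3% of all genes). The p-values measure the spread between these libraries, and all comparisons with iEF share its 3 libraries. In bulk RNA, a lower level per cell and a smaller share of cells with the transcript cannot be told apart.

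**Figure D1:**
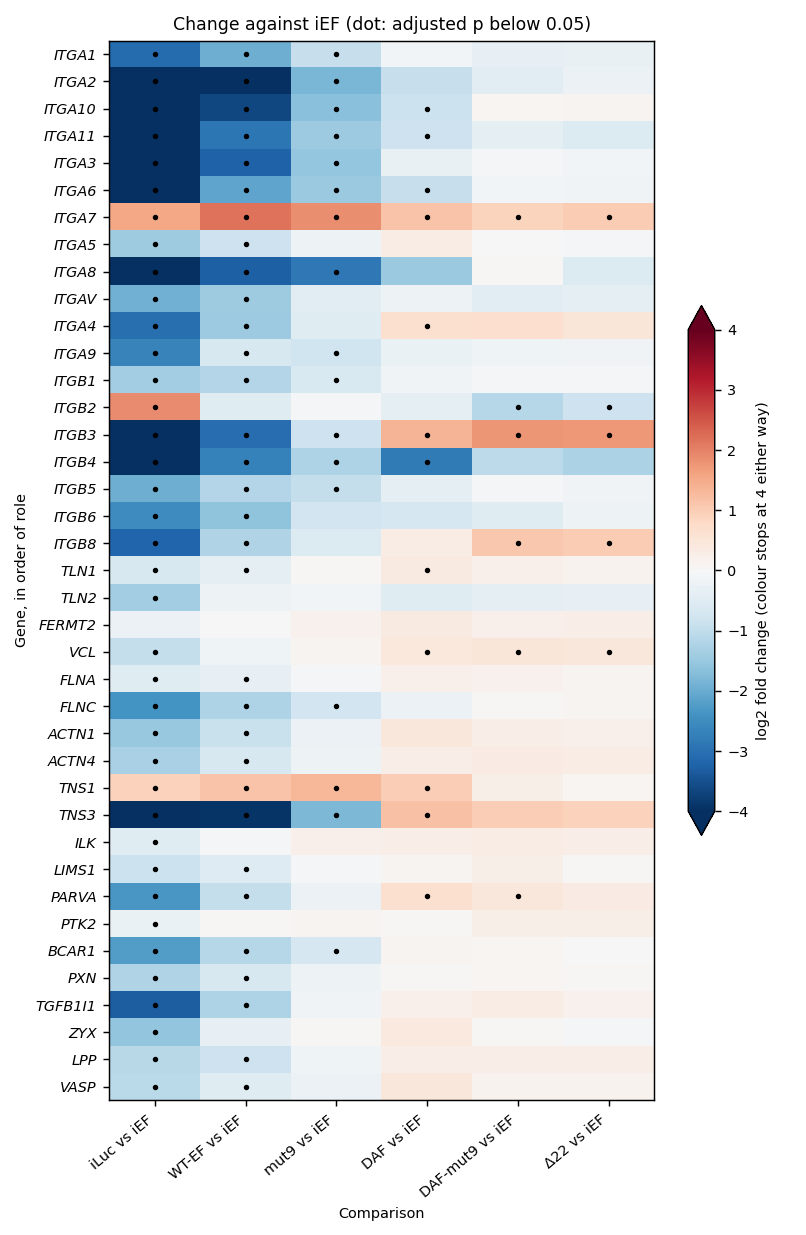
Log2 fold change of each of the 39 genes (rows, in order of role) in 6 comparisons with iEF (columns), with blue for lower and red for higher than in iEF and a dot where the adjusted p was below 0.05. Blue fills the iLuc column except for ITGA7, ITGB2 and TNS1, and fades towards white from WT-EF through mut9 to the DAF, DAF-mut9 and Δ22 columns.

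The 4 collagen-binding alpha subunits, ITGA1, ITGA2, ITGA10 and ITGA11, held the lowest median of any role in iLuc against iEF, -6.06 on the log2 scale. ITGA11 was at 0.282, 0.265 and 0.175 CPM in iLuc, 29.2, 30.3 and 27.7 in iEF, 4.92, 3.05 and 3.93 in WT-EF and 9.27, 10.6 and 11.8 in mut9. ITGA11 was at 19.2, 12.1 and 17.9 CPM in DAF, 23.8, 23.4 and 19.3 in DAF-mut9 and 26.1, 21.2 and 13.9 in Δ22. The iLuc libraries lay far below all others and the iEF libraries above those of every other group, so no group overlapped iEF. ITGA11 (ENSG00000137809, chr15:68588870-68724502, reverse strand of GRCh37) codes for the alpha subunit of a receptor for fibrillar collagen on mesenchymal cells. It was 119-fold lower in iLuc than in iEF (log2 fold change -6.90 ± 0.28 SE, adjusted p = 2.08e-13), and also lower in WT-EF (-2.89 ± 0.21, adjusted p = 2.84e-09), mut9 (-1.46 ± 0.20, adjusted p = 2.14e-05) and DAF (-0.84 ± 0.19, adjusted p = 0.00949). ITGA10 was at 0.514, 0.575 and 0.576 CPM in iLuc, 51.7, 74.02 and 41.9 in iEF, 6.54, 2.83 and 4.37 in WT-EF and 20.6, 15.5 and 17.01 in mut9. ITGA10 was at 37.8, 27.6 and 29.1 CPM in DAF, 70.8, 59.4 and 50.3 in DAF-mut9 and 79.3, 49.5 and 56.4 in Δ22. Here too iLuc was lowest, and the DAF libraries lay below all of those of iEF, DAF-mut9 and Δ22. The ITGA10 difference was 101-fold in iLuc (log2 fold change -6.65 ± 0.28 SE, adjusted p = 2.49e-13) and 1.81-fold in DAF (-0.85 ± 0.20, adjusted p = 0.00999). Without iEF replicate 2, the DAF difference was -0.47 with an adjusted p of 0.093.

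ITGA2 was at 1.95, 3.14 and 2.63 CPM in iLuc, 159, 46.05 and 163 in iEF, 8.10, 5.78 and 8.15 in WT-EF and 29.04, 15.8 and 57.9 in mut9. ITGA2 was at 69.2, 62.7 and 47.9 CPM in DAF, 89.1, 80.7 and 89.4 in DAF-mut9 and 106, 104 and 78.6 in Δ22. ITGA2, a collagen receptor subunit of epithelial cells and platelets, had 1 iEF library well below the other two, within the range of the mut9 libraries and just below those of DAF. It was 44.1-fold lower in iLuc (log2 fold change -5.46 ± 0.43 SE, adjusted p = 1.8e-09) and 15.99-fold lower in WT-EF (-3.999 ± 0.39, adjusted p = 1.4e-07). ITGA1 was at 24.97, 32.3 and 13.5 CPM in iLuc, 146, 307 and 152 in iEF, 49.8, 51.98 and 45.1 in WT-EF and 97.3, 74.8 and 122 in mut9. ITGA1 was at 129, 282 and 151 CPM in DAF, 130.5, 158 and 169.7 in DAF-mut9 and 158, 236 and 98.5 in Δ22. ITGA1 codes for the alpha subunit of a receptor for collagen IV, and 1070 of its exon bases are shared with other genes of the same strand, PELO among them. The iEF, DAF and Δ22 libraries each spread about as widely as they differed from one another, and iLuc and WT-EF lay below all of them. The differences from iEF were -3.08 ± 0.30, adjusted p = 4.28e-08 in iLuc, -1.97 ± 0.29, adjusted p = 2.07e-05 in WT-EF and -0.92 ± 0.28, adjusted p = 0.0309 in mut9 on the log2 scale, and the last was -0.70 with an adjusted p of 0.142 without iEF replicate 2 and 0.0515 without iEF replicate 3.

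ITGA3 and ITGA6, which bind laminins, were lower in iLuc, while ITGA7, the laminin receptor subunit known from muscle, was higher. ITGA3 was at 3.70, 3.89 and 3.08 CPM in iLuc, 326, 384 and 321 in iEF, 47.1, 24.9 and 37.6 in WT-EF and 129, 89.2 and 135 in mut9. ITGA3 was at 260.3, 289.5 and 292 CPM in DAF, 321, 341 and 326 in DAF-mut9 and 277, 339 and 341 in Δ22. The 4 groups in the first set stood in 4 separate ranges, and DAF-mut9 and Δ22 overlapped iEF. ITGA3 (chr17:48133332-48167845, forward strand) was 96.5-fold lower in iLuc (log2 fold change -6.59 ± 0.23 SE, adjusted p = 2.6e-14), 9.48-fold lower in WT-EF (-3.25 ± 0.19, adjusted p = 1.84e-10) and 2.94-fold lower in mut9 (-1.56 ± 0.18, adjusted p = 3.09e-06), and its difference in DAF did not pass the test (-0.29 ± 0.17, adjusted p = 0.388).

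ITGA6 was at 17.9, 28.7 and 13.4 CPM in iLuc, 292, 321 and 378 in iEF, 88.5, 63.5 and 75.2 in WT-EF and 114, 106 and 134 in mut9. ITGA6 was at 201, 149.6 and 171 CPM in DAF, 320.1, 326 and 279.6 in DAF-mut9 and 263, 257 and 372 in Δ22. iLuc, WT-EF, mut9, DAF and iEF followed each other without overlap in this order, and DAF-mut9 and Δ22 overlapped iEF. ITGA6 was 16.4-fold lower in iLuc (log2 fold change -4.04 ± 0.24 SE, adjusted p = 2.39e-11) and still 1.90-fold lower in DAF (-0.92 ± 0.21, adjusted p = 0.00833), but the step from WT-EF to mut9 did not pass the test (0.64 ± 0.21, adjusted p = 0.0782). ITGA7 was at 9.86, 8.69 and 10.1 CPM in iLuc, 3.34, 3.88 and 2.57 in iEF, 12.5, 13.9 and 18.3 in WT-EF and 10.01, 15.6 and 9.74 in mut9. ITGA7 was at 8.19, 6.03 and 7.32 CPM in DAF, 7.11, 5.79 and 5.25 in DAF-mut9 and 5.54, 5.66 and 8.61 in Δ22. Every library of the 6 other groups lay above the highest of the iEF libraries. ITGA7 (chr12:56078352-56110188, reverse strand) was higher than in iEF in all 6 comparisons, from 2.19 ± 0.24, adjusted p = 4.57e-07 in WT-EF down to 0.89 ± 0.23, adjusted p = 0.0369 in DAF-mut9 on the log2 scale, and it was 2.93-fold higher in iLuc (log2 fold change 1.55 ± 0.23 SE, adjusted p = 1.45e-05). The DAF-mut9 call was kept in 22 of 29 alternative analyses and the Δ22 call in 26 of 29.

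ITGA5, ITGA8 and ITGAV bind ligands with an RGD sequence such as fibronectin and vitronectin, and all 3 were lower in iLuc. ITGA5 was at 90.05, 81.6 and 60.2 CPM in iLuc, 200.2, 199.9 and 211 in iEF, 116, 116 and 111 in WT-EF and 206, 160.4 and 168 in mut9. ITGA5 was at 245, 265 and 243 CPM in DAF, 188, 225 and 205 in DAF-mut9 and 173, 238 and 175 in Δ22. iLuc and WT-EF formed separate ranges below iEF, and the DAF libraries lay above iEF by less than the test required (0.30 ± 0.13, adjusted p = 0.215). ITGA5, the alpha subunit of the main fibronectin receptor, was 2.65-fold lower in iLuc (log2 fold change -1.41 ± 0.14 SE, adjusted p = 3.35e-08) and 1.78-fold lower in WT-EF (-0.83 ± 0.13, adjusted p = 5.93e-05). ITGAV was at 104, 136 and 83.96 CPM in iLuc, 335, 403 and 479 in iEF, 171, 151 and 136 in WT-EF and 362, 244 and 299.8 in mut9. ITGAV was at 408, 344 and 314 CPM in DAF, 285, 342 and 286 in DAF-mut9 and 327, 358 and 254 in Δ22. Only iLuc and WT-EF stood below all iEF libraries, and they overlapped each other. ITGAV, the alpha subunit that pairs with several beta subunits, differed by -1.93 ± 0.18, adjusted p = 1.92e-08 in iLuc and -1.43 ± 0.18, adjusted p = 2.43e-06 in WT-EF on the log2 scale.

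ITGA8 was at 0.103, 0.376 and 0.0752 CPM in iLuc, 3.24, 11.3 and 2.92 in iEF, 0.577, 0.484 and 0.540 in WT-EF and 0.370, 0.589 and 1.16 in mut9. ITGA8 was at 1.55, 1.87 and 2.03 CPM in DAF, 5.26, 5.10 and 5.25 in DAF-mut9 and 4.58, 5.57 and 1.09 in Δ22. ITGA8 had few counts, 24 over the 3 iLuc libraries, and 1 iEF library was well above the other two. It differed from iEF by -4.84 ± 0.61, adjusted p = 1.47e-06 in iLuc, -3.26 ± 0.53, adjusted p = 7.73e-05 in WT-EF and -2.87 ± 0.52, adjusted p = 0.000588 in mut9, and these differences were -4.14, -2.62 and -2.24 without iEF replicate 2.

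ITGA4 and ITGA9 are related alpha subunits, known for binding VCAM1 and tenascin respectively among other ligands. ITGA4 was at 4.08, 8.02 and 3.91 CPM in iLuc, 30.6, 54 and 45.9 in iEF, 13.2, 14.8 and 19.1 in WT-EF and 21.4, 33.3 and 37.6 in mut9. ITGA4 was at 66.2, 63.97 and 68.4 CPM in DAF, 62.5, 71.8 and 67.1 in DAF-mut9 and 50.6, 67.95 and 62.2 in Δ22. All DAF and DAF-mut9 libraries lay above all iEF libraries, and Δ22 overlapped iEF. ITGA4 was 8.11-fold lower in iLuc (log2 fold change -3.02 ± 0.21 SE, adjusted p = 2.09e-10) and 1.57-fold higher in DAF (0.65 ± 0.19, adjusted p = 0.0358), a call kept in 21 of 29 alternative analyses. Of its 10654 exon bases, 2813 overlap CERKL on the opposite strand, and the strand setting of the counting is not given in the sources used here. ITGA9 was at 0.925, 1.37 and 0.877 CPM in iLuc, 5.30, 9.89 and 5.59 in iEF, 3.56, 4.96 and 4.54 in WT-EF and 3.68, 4.10 and 3.98 in mut9. ITGA9 was at 5.95, 4.64 and 5.94 CPM in DAF, 5.16, 7.19 and 6.00 in DAF-mut9 and 6.06, 6.30 and 6.13 in Δ22. The iLuc libraries stood apart below all others. ITGA9 differed by -2.69 ± 0.22, adjusted p = 3.19e-09 in iLuc, and the smaller differences in WT-EF (-0.65 ± 0.20, adjusted p = 0.0177) and mut9 (-0.79 ± 0.20, adjusted p = 0.00936) had adjusted p of 0.173 and 0.089 without iEF replicate 2.

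Among the 7 beta subunits, 6 were lower in iLuc and ITGB2 was higher. ITGB1 was at 454, 594 and 446 CPM in iLuc, 1292, 1320 and 1278 in iEF, 582, 540.3 and 594 in WT-EF and 862, 805 and 904 in mut9. ITGB1 was at 1272, 1214 and 1027 CPM in DAF, 1264, 1289 and 1217 in DAF-mut9 and 1260, 1446 and 1051 in Δ22. ITGB1, the common partner of the collagen, laminin and fibronectin alpha subunits, overlapped between iLuc and WT-EF, and both lay below mut9, which lay below iEF. It was 2.61-fold lower in iLuc (log2 fold change -1.39 ± 0.12 SE, adjusted p = 6e-09), 2.26-fold lower in WT-EF (-1.18 ± 0.12, adjusted p = 1.77e-07) and 1.51-fold lower in mut9 (-0.59 ± 0.12, adjusted p = 0.00117), and WT-EF and iLuc differed by 0.21 ± 0.12, adjusted p = 0.255. ITGB5 was at 83.3, 91.96 and 54.2 CPM in iLuc, 251, 369 and 266 in iEF, 130.4, 128 and 126 in WT-EF and 145, 168 and 143 in mut9. ITGB5 was at 241, 223 and 221 CPM in DAF, 296, 317 and 250.3 in DAF-mut9 and 246, 283 and 274 in Δ22. ITGB5, which pairs with the alpha-V subunit, had its iLuc, WT-EF, mut9 and iEF libraries in 4 separate ranges. It differed from iEF by -1.95 ± 0.14, adjusted p = 4.13e-10 in iLuc, -1.19 ± 0.14, adjusted p = 1.02e-06 in WT-EF and -0.95 ± 0.14, adjusted p = 3.85e-05 in mut9.

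ITGB3 was at 0.0257, 0.0663 and 0.0251 CPM in iLuc, 6.37, 4.88 and 4.97 in iEF, 0.889, 0.363 and 0.712 in WT-EF and 2.59, 2.33 and 4.28 in mut9. ITGB3 was at 13.4, 16.3 and 12.2 CPM in DAF, 17.9, 19.4 and 18.5 in DAF-mut9 and 14.1, 23.7 and 16.2 in Δ22. From iLuc through WT-EF and mut9 to iEF the ranges rose without overlap, and every DAF, DAF-mut9 and Δ22 library lay above every iEF library. ITGB3 (chr17:45331193-45391109, forward strand) codes for the beta subunit of the vitronectin receptor and of the platelet fibrinogen receptor. Of its 6829 exon bases, 2266 are shared with another protein-coding gene of the same strand. The iLuc libraries held 5 counts in all against 613 in iEF, a ratio of 136 after scaling (95% exact interval 57.99 to 420.5, for counting error only). Against iEF it was 8.24-fold lower in WT-EF (-3.04 ± 0.30, adjusted p = 1.19e-07) and 1.78-fold lower in mut9 (-0.83 ± 0.26, adjusted p = 0.0323), and the mut9 call was kept in 24 of 28 alternatives, with an adjusted p of 0.202 without mut9 replicate 2. It was 2.57-fold higher in DAF (1.36 ± 0.25, adjusted p = 0.00146), 3.42-fold higher in DAF-mut9 (1.77 ± 0.25, adjusted p = 0.000475) and 3.31-fold higher in Δ22 (1.73 ± 0.25, adjusted p = 0.000834). The last 3 calls were kept in all 28 alternative analyses that gave a value.

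ITGB8 was at 6.81, 6.72 and 2.08 CPM in iLuc, 51.3, 41.95 and 46.99 in iEF, 19.8, 19.2 and 22.8 in WT-EF and 28.02, 35.2 and 33.9 in mut9. ITGB8 was at 49.5, 71.8 and 53.01 CPM in DAF, 93.7, 109 and 96.3 in DAF-mut9 and 61, 102 and 123 in Δ22. ITGB8, which pairs with alpha-V and binds latent TGF-beta, was above all iEF libraries in every DAF-mut9 and Δ22 library, while DAF overlapped iEF. It was 9.07-fold lower in iLuc (log2 fold change -3.18 ± 0.30 SE, adjusted p = 2.54e-08), 2.11-fold higher in DAF-mut9 (1.08 ± 0.27, adjusted p = 0.0303) and 2.02-fold higher in Δ22 (1.01 ± 0.27, adjusted p = 0.0489). The Δ22 call was kept in 8 of 29 alternative analyses. ITGB4 was at 0.899, 1.15 and 0.902 CPM in iLuc, 22.5, 73.5 and 12.3 in iEF, 7.62, 4.76 and 3.17 in WT-EF and 15.4, 16.4 and 11.02 in mut9. ITGB4 was at 5.59, 2.41 and 5.38 CPM in DAF, 17.8, 17.4 and 13.01 in DAF-mut9 and 15.5, 13.1 and 12.4 in Δ22. ITGB4, the partner of the alpha-6 subunit in hemidesmosomes, was several times higher in iEF replicate 2 than in the other iEF libraries. DAF and WT-EF lay below all iEF libraries, and mut9 overlapped them. Its log2 differences from iEF were -5.08 ± 0.49, adjusted p = 3.36e-08 in iLuc, -2.71 ± 0.42, adjusted p = 4.4e-05 in WT-EF, -1.23 ± 0.40, adjusted p = 0.0407 in mut9 and -2.84 ± 0.43, adjusted p = 0.000266 in DAF. Without iEF replicate 2 they were -4.06, -1.73, -0.23 and -1.90, and the mut9 difference lost its call with an adjusted p of 0.695.

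ITGB2 was at 12.1, 16.4 and 8.89 CPM in iLuc, 3.15, 4.47 and 2.54 in iEF, 1.97, 3.10 and 2.19 in WT-EF and 3.24, 4.12 and 2.18 in mut9. ITGB2 was at 1.97, 2.89 and 2.85 CPM in DAF, 1.33, 1.45 and 1.73 in DAF-mut9 and 1.73, 2.15 and 1.77 in Δ22. Only iLuc lay above iEF, and all WT-EF libraries were below all iLuc libraries. ITGB2 was 3.68-fold higher in iLuc (log2 fold change 1.88 ± 0.21 SE, adjusted p = 3.02e-07), did not pass the test in WT-EF (-0.48 ± 0.21, adjusted p = 0.106), and was lower in DAF-mut9 (-1.13 ± 0.22, adjusted p = 0.007) and Δ22 (-0.82 ± 0.22, adjusted p = 0.047). The Δ22 call was kept in 12 of 29 alternatives. Beside it, PTPRC, a marker of leukocytes, was at 0.539, 0.508 and 0.426 CPM in iLuc and 0.513, 0.751 and 0.784 in iEF. ITGB6 was at 0.128, 0.221 and 0.226 CPM in iLuc, 1.68, 0.970 and 0.865 in iEF, 0.312, 0.242 and 0.565 in WT-EF and 0.832, 0.319 and 0.931 in mut9. ITGB6 was at 0.928, 0.754 and 0.500 CPM in DAF, 0.976, 0.851 and 0.642 in DAF-mut9 and 1.59, 0.756 and 0.732 in Δ22. ITGB6, the epithelial partner of alpha-V, was weakly expressed and lower than in iEF in iLuc (-2.53 ± 0.43, adjusted p = 6.44e-05) and WT-EF (-1.61 ± 0.40, adjusted p = 0.00375). A non-coding gene of the same strand shares 966 of its 5785 exon bases.

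Per kb of annotated exon, ITGB1 was the most abundant integrin transcript in both iEF (89.1 ± 1.47 CPM per kb, SD, n = 3) and iLuc (34.2 ± 5.71). In iEF it was followed by ITGA6 at 49.5 ± 6.53, ITGB5 at 45.4 ± 9.88, ITGA3 at 35.1 ± 3.58 and ITGA5 at 27.6 ± 0.833 CPM per kb. ITGA6 and ITGB5 did not differ beyond their spread, and neither did ITGB5 and ITGA3. In iLuc, ITGB5 at 11.7 ± 3.03, ITGA5 at 10.5 ± 2.08 and ITGAV at 5.60 ± 1.37 came next, and ITGA3 was at 0.363 ± 0.0431 CPM per kb. The lengths are of all annotated exons joined, so these levels depend on the gene models.

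**Figure D2:**
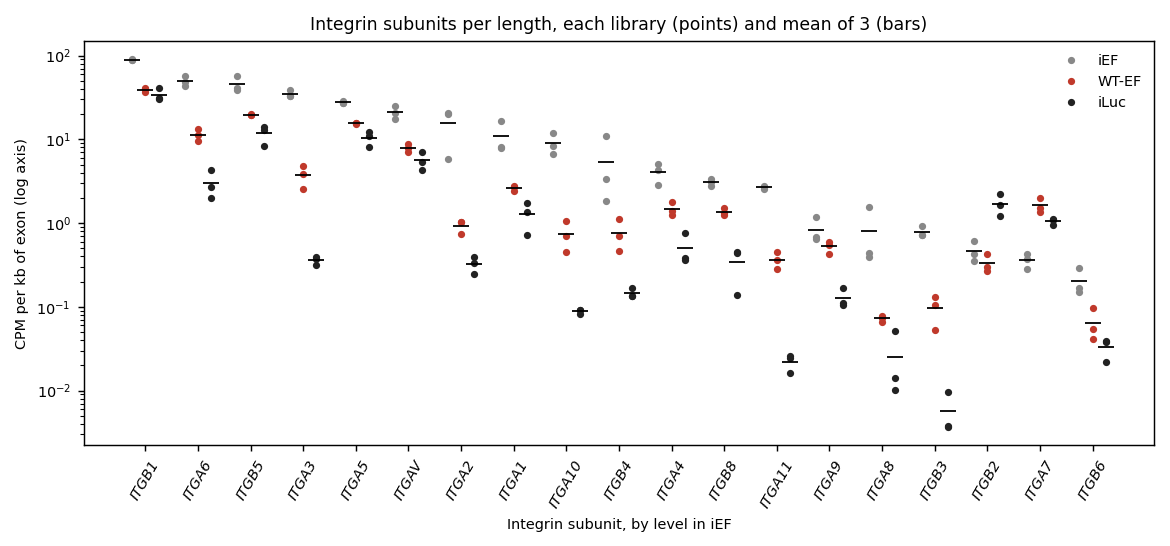
CPM per kb of exon (log axis) of the 19 integrin subunits, ordered by their mean in iEF, in each library of iEF (grey), WT-EF (red) and iLuc (black), with a bar at each mean. ITGB1 leads in all 3 groups, the black points lie below the grey ones except for ITGB2 and ITGA7, and ITGB3 has the lowest iLuc mean.

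Inside the cell, the genes whose products activate integrins or link them to actin had a median log2 fold change of -1.12 over 10 genes in iLuc, beside -3.08 for the receptors. TLN1 and TLN2 code for the talins, which bind the beta tail. TLN1 was at 308, 264 and 241 CPM in iLuc, 449.7, 417 and 389 in iEF, 325, 304 and 326 in WT-EF and 453, 405 and 434 in mut9. TLN1 was at 527, 562 and 514 CPM in DAF, 483, 497 and 476 in DAF-mut9 and 437, 479 and 470 in Δ22. TLN1 was below all iEF libraries in iLuc and WT-EF and above all of them in DAF. The differences were small, 1.55-fold in iLuc (log2 fold change -0.63 ± 0.10 SE, adjusted p = 1.77e-05) and 1.28-fold in DAF (0.35 ± 0.10, adjusted p = 0.0259). TLN2 was at 18.7, 15.2 and 16.1 CPM in iLuc, 44.4, 51.7 and 34.1 in iEF, 34.6, 39.1 and 39.3 in WT-EF and 36.1, 32.3 and 54.1 in mut9. TLN2 was at 28.3, 29.2 and 35.5 CPM in DAF, 30.9, 33.5 and 37.2 in DAF-mut9 and 35.6, 38.2 and 30.4 in Δ22. TLN2 was low in iLuc alone, by 2.61-fold (log2 fold change -1.39 ± 0.18 SE, adjusted p = 1.86e-06), and no rescue construct passed the test against iEF. FERMT2 (kindlin-2) ranged from 72.9 to 208 CPM in iLuc and from 148 to 190.1 in iEF, and none of its 12 comparisons passed the test.

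VCL was at 313, 403 and 258 CPM in iLuc, 610.3, 689 and 575 in iEF, 569, 534 and 566 in WT-EF and 722, 691 and 623 in mut9. VCL was at 855, 823 and 816 CPM in DAF, 864, 952 and 819 in DAF-mut9 and 812, 870.4 and 884 in Δ22. VCL codes for vinculin, which binds talin under tension and recruits actin. Every DAF, DAF-mut9 and Δ22 library lay above every iEF library, and iLuc lay below. VCL was 1.94-fold lower in iLuc (log2 fold change -0.95 ± 0.11 SE, adjusted p = 7.33e-07) and 1.33-fold, 1.41-fold and 1.38-fold higher in DAF, DAF-mut9 and Δ22 (adjusted p = 0.026, 0.0185 and 0.0313), and without iEF replicate 3 these 3 adjusted p were 0.0942, 0.0936 and 0.15. Of its exon bases, 1109 overlap AP3M1 on the opposite strand. FLNA, the actin crosslinker filamin A, was at 839 to 1196 CPM in iLuc and 1379 to 1521 in iEF (-0.50 ± 0.11, adjusted p = 0.00127). FLNC was at 28.7, 30.4 and 24.2 CPM in iLuc, 149.6, 119 and 186 in iEF, 75.03, 34.2 and 91.3 in WT-EF and 90.5, 63.7 and 115 in mut9. FLNC was at 145, 113 and 124 CPM in DAF, 170, 144 and 149 in DAF-mut9 and 161, 140.3 and 183 in Δ22. FLNC, the filamin of muscle, was 5.29-fold lower in iLuc (log2 fold change -2.40 ± 0.21 SE, adjusted p = 1.14e-08), 2.33-fold lower in WT-EF (-1.22 ± 0.21, adjusted p = 0.000106) and 1.70-fold lower in mut9 (-0.77 ± 0.20, adjusted p = 0.0127), with DAF-mut9 and Δ22 overlapping iEF.

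ACTN1 and ACTN4, the non-muscle alpha-actinins that crosslink actin, were both lower in iLuc and WT-EF. ACTN1 was at 173, 162 and 117 CPM in iLuc, 435, 494 and 372 in iEF, 250, 216 and 229 in WT-EF and 386, 315 and 405 in mut9. ACTN1 was at 509, 679.5 and 605 CPM in DAF, 440, 548 and 591 in DAF-mut9 and 413, 535 and 552 in Δ22. ACTN4 was at 188, 165 and 181 CPM in iLuc, 499.9, 439 and 366 in iEF, 308, 232 and 293 in WT-EF and 394, 338 and 414 in mut9. In both genes iLuc, WT-EF and iEF were in separate ranges. ACTN4 was at 514, 520.5 and 544 CPM in DAF, 529.7, 543 and 563 in DAF-mut9 and 486, 498 and 620.2 in Δ22. ACTN1 was 2.87-fold lower in iLuc (log2 fold change -1.52 ± 0.16 SE, adjusted p = 1.78e-07) and 1.86-fold lower in WT-EF (-0.90 ± 0.16, adjusted p = 0.000215). ACTN4 was 2.45-fold lower in iLuc (log2 fold change -1.29 ± 0.12 SE, adjusted p = 2.48e-08) and 1.57-fold lower in WT-EF (-0.65 ± 0.12, adjusted p = 0.000267), and neither gene passed the test against iEF in mut9, DAF, DAF-mut9 or Δ22.

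The 2 tensins, which bind beta tails and actin at mature adhesions, went opposite ways. TNS1 was at 47.7, 52.4 and 75.4 CPM in iLuc, 33.6, 33.7 and 25.2 in iEF, 68.8, 63.7 and 70.1 in WT-EF and 74.3, 86.2 and 70.3 in mut9. TNS1 was at 59.9, 59.4 and 62.9 CPM in DAF, 35.7, 37.5 and 34.8 in DAF-mut9 and 28.4, 32.1 and 36.96 in Δ22. Every library of iLuc, WT-EF, mut9 and DAF lay above every iEF and Δ22 library, and DAF-mut9 lay between iEF and those groups, overlapping Δ22. TNS1 (chr2:218664311-218898705, reverse strand) was 1.88-fold higher in iLuc (log2 fold change 0.91 ± 0.15 SE, adjusted p = 4.4e-05), 2.18-fold in WT-EF (1.13 ± 0.15, adjusted p = 6.98e-06), 2.49-fold in mut9 (1.32 ± 0.15, adjusted p = 3.07e-06) and 1.96-fold in DAF (0.97 ± 0.15, adjusted p = 0.000302), but not by the test in DAF-mut9 (0.22 ± 0.15, adjusted p = 0.558) or Δ22 (0.07 ± 0.15, adjusted p = 0.914). The first 4 calls were kept in all 29 other analyses, but the iLuc and DAF changes were under 2-fold. TNS3 was at 0.0257, 0.0442 and 0.0251 CPM in iLuc, 2.75, 6.79 and 2.35 in iEF, 0.264, 0.169 and 0.319 in WT-EF and 1.13, 0.957 and 1.10 in mut9. TNS3 was at 3.49, 12.8 and 11.6 CPM in DAF, 5.93, 9.74 and 7.26 in DAF-mut9 and 3.18, 8.62 and 11.5 in Δ22. TNS3 held 4 counts over the iLuc libraries against 422 in iEF, a scaled ratio of 117 (95% exact interval 45.4 to 431.7, for counting error only). WT-EF and mut9 lay in separate ranges below iEF, and DAF overlapped iEF. It was lower in WT-EF (-3.91 ± 0.46, adjusted p = 1.55e-06) and mut9 (-1.78 ± 0.39, adjusted p = 0.00282), and its higher level in DAF (1.16 ± 0.35, adjusted p = 0.049) kept its call in 12 of 28 alternatives.

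ILK, LIMS1 (PINCH1) and PARVA (alpha-parvin) form a complex that joins beta tails to actin. PARVA was at 28.1, 23.7 and 17.9 CPM in iLuc, 128, 108 and 112 in iEF, 69.9, 50.9 and 57.9 in WT-EF and 106, 99.6 and 93.04 in mut9. PARVA was at 175, 179.6 and 186 CPM in DAF, 162, 173 and 144 in DAF-mut9 and 137, 145 and 153 in Δ22. The iLuc, WT-EF, mut9 and iEF libraries formed 4 separate ranges in rising order, and those of DAF, DAF-mut9 and Δ22 all lay above iEF. PARVA was 5.01-fold lower in iLuc (log2 fold change -2.33 ± 0.13 SE, adjusted p = 1.77e-11) and 1.95-fold lower in WT-EF (-0.97 ± 0.13, adjusted p = 6.42e-06), 1.56-fold higher in DAF (0.64 ± 0.13, adjusted p = 0.00295) and 1.38-fold higher in DAF-mut9 (0.46 ± 0.13, adjusted p = 0.0484), the last kept in 14 of 29 alternatives. LIMS1 was at 62.6 to 80.3 CPM in iLuc and 123 to 135 in iEF (-0.86 ± 0.11, adjusted p = 2.16e-06). ILK was at 1.41 to 1.82 CPM in iLuc and 1.60 to 2.57 in iEF (-0.48 ± 0.18, adjusted p = 0.0409), a call kept in 17 of 29 alternatives, and 3011 of its 3485 exon bases overlap genes of the opposite strand, so its counts are uncertain.

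Among the signalling adaptors, BCAR1, a scaffold protein phosphorylated by FAK and Src, was lower in iLuc, WT-EF and mut9. BCAR1 was at 21.3, 20.1 and 27.4 CPM in iLuc, 112, 101 and 106 in iEF, 50.9, 40.4 and 53.98 in WT-EF and 71.3, 54.96 and 76.1 in mut9. BCAR1 was at 111, 111 and 125 CPM in DAF, 111, 108 and 119 in DAF-mut9 and 106, 103 and 109.9 in Δ22. iLuc, WT-EF, mut9 and iEF were in 4 separate ranges, and the other groups overlapped iEF. BCAR1 was 4.67-fold lower in iLuc (log2 fold change -2.22 ± 0.11 SE, adjusted p = 1.81e-12), 2.21-fold in WT-EF (-1.14 ± 0.11, adjusted p = 5.68e-08) and 1.59-fold in mut9 (-0.67 ± 0.10, adjusted p = 0.00011). TGFB1I1 was at 2.29, 1.52 and 0.802 CPM in iLuc, 16.1, 15.4 and 12.9 in iEF, 8.31, 4.60 and 6.07 in WT-EF and 15.5, 11.2 and 14.1 in mut9. TGFB1I1 was at 17.2, 16.2 and 17.4 CPM in DAF, 18.9, 18 and 17.3 in DAF-mut9 and 17.5, 16.2 and 15.7 in Δ22. TGFB1I1 (Hic-5), the paralogue of paxillin, was 9.80-fold lower in iLuc (log2 fold change -3.29 ± 0.22 SE, adjusted p = 1.93e-10) and 2.37-fold lower in WT-EF (-1.25 ± 0.20, adjusted p = 5.83e-05), with mut9 overlapping iEF.

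PXN was at 29.9, 22.01 and 28.4 CPM in iLuc, 75.3, 39.98 and 74.3 in iEF, 46.1, 28.4 and 47.4 in WT-EF and 57.8, 42.8 and 60.6 in mut9. PXN was at 67.1, 57.9 and 65.2 CPM in DAF, 66.6, 62.2 and 64.2 in DAF-mut9 and 63.1, 56.95 and 71.2 in Δ22. PXN, paxillin, was 2.32-fold lower in iLuc (log2 fold change -1.21 ± 0.14 SE, adjusted p = 4.38e-07) with no overlap, and its lower level in WT-EF (-0.63 ± 0.14, adjusted p = 0.00145) overlapped iEF replicate 2. Genes of the opposite strand, PXN-AS1 among them, overlap 2032 of its exon bases. PTK2, the focal adhesion kinase FAK, moved least of the called genes, at 200.4 to 307 CPM in iLuc and 295 to 338 in iEF (-0.26 ± 0.10, adjusted p = 0.0465). Without iLuc replicate 3 its difference was -0.13 with an adjusted p of 0.28, and its call was kept in 12 of 29 alternatives.

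ZYX and LPP belong to the zyxin family of LIM proteins, which gather at adhesions and strained actin fibres, and VASP promotes actin filament growth there. ZYX was at 17.8, 17.8 and 12.2 CPM in iLuc, 57.7, 36.6 and 50.7 in iEF, 36.1, 34.5 and 44.6 in WT-EF and 48.99, 45.8 and 53.8 in mut9. ZYX was at 56.9, 62.04 and 72.9 CPM in DAF, 46.8, 53.9 and 49.1 in DAF-mut9 and 38.95, 47.8 and 55.1 in Δ22. Only the iLuc libraries of ZYX stood apart from iEF, 3.01-fold lower (log2 fold change -1.59 ± 0.17 SE, adjusted p = 2.25e-07). LPP was at 107, 105 and 65.04 CPM in iLuc, 216, 207 and 173 in iEF, 117, 104 and 113 in WT-EF and 181, 154 and 185 in mut9. LPP was at 244, 280.3 and 192 CPM in DAF, 237, 277 and 208 in DAF-mut9 and 227, 227 and 253 in Δ22. LPP was 2.16-fold lower in iLuc (log2 fold change -1.11 ± 0.15 SE, adjusted p = 4.46e-06) and 1.77-fold lower in WT-EF (-0.82 ± 0.15, adjusted p = 0.000273), and these 2 groups overlapped each other. VASP was at 59.8, 59.5 and 38.4 CPM in iLuc, 129.8, 104 and 94.8 in iEF, 80.5, 79.1 and 76.2 in WT-EF and 103, 89.4 and 87.6 in mut9. VASP was at 135, 175 and 145 CPM in DAF, 115, 125 and 119 in DAF-mut9 and 102, 126 and 137 in Δ22. VASP had iLuc below WT-EF and WT-EF below iEF without overlap, with differences from iEF of -1.07 ± 0.15, adjusted p = 6.93e-06 and -0.48 ± 0.15, adjusted p = 0.0204.

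Of the iLuc libraries, replicate 3 held the lowest level in 28 of the 39 genes and the smallest share of counts in them, 0.324%. Without it 36 genes were called, and the calls of ILK and PTK2 were lost. These 2 calls were also lost without the replicate block, with adjusted p of 0.161 and 0.128.

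**Figure D3:**
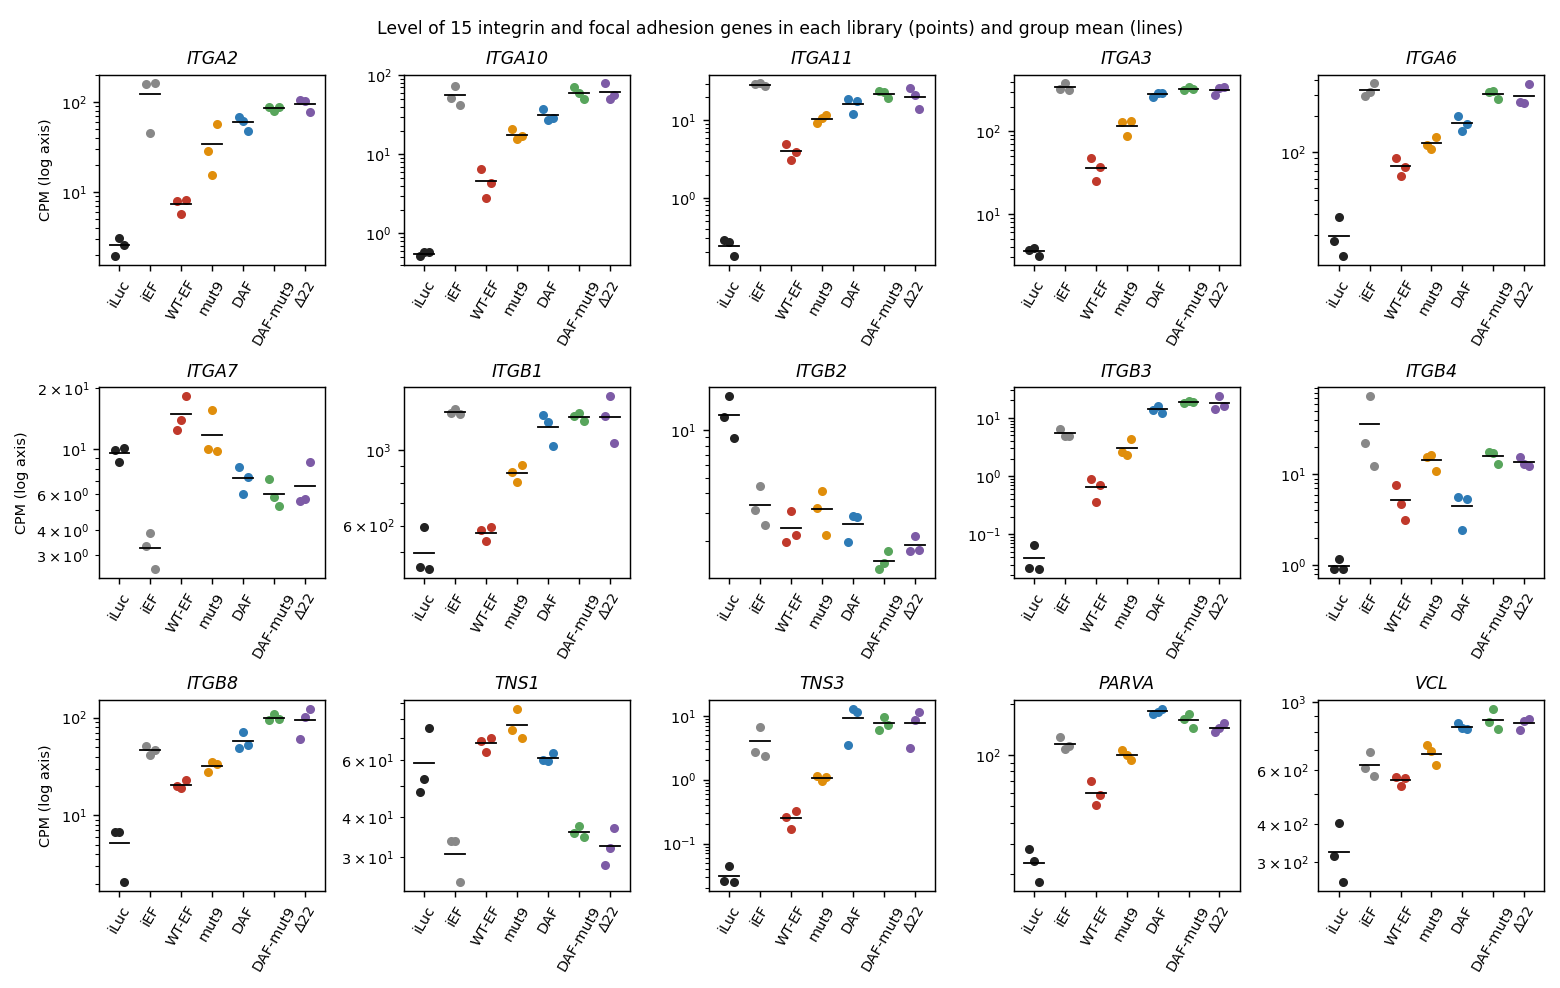
Level in CPM (log axis) of 15 of the genes in each of the 21 libraries (points, coloured by group) with a line at each group mean. Most panels climb from iLuc through WT-EF and mut9 to iEF, ITGA7 and TNS1 are lowest in iEF, ITGB2 is high in iLuc only, and ITGB3 is higher in DAF, DAF-mut9 and Δ22 than in iEF.

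Promoter sequences are shown for the called genes with the largest change each way in iLuc against iEF. Only genes with a mean of at least 5 CPM and an entry in the RefSeq table for GRCh38.p14 were considered. ITGB2, which rose more than TNS1, was below this mean. A further 2 genes were chosen because a searched motif was found. The table matched 31 of the 39 genes and has no entry used here for ITGB3 or ITGA7. Each line is the 250 bases before the gene's start, 5′ to 3′ on the gene's strand, with capitals for searched motifs, written as their complement where the match lay on the other strand.
ITGA11, chr15:68432164-68432413, reverse strand: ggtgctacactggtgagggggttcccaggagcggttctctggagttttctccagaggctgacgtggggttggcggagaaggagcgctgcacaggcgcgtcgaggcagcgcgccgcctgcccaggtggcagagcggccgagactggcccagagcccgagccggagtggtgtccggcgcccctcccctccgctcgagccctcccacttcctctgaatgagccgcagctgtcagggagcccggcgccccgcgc
TNS1, chr2:218010276-218010525, reverse strand: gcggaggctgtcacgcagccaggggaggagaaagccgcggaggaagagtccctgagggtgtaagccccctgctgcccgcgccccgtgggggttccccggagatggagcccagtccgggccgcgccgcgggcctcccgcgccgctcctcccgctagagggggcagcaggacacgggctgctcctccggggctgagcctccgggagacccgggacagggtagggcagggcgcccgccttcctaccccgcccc
ITGA10, chr1:145910051-145910300, reverse strand: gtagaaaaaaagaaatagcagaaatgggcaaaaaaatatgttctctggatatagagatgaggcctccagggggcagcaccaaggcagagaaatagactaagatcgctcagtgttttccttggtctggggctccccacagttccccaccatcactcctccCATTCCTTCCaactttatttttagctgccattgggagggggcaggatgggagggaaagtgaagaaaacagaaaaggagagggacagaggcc
ITGB1, chr10:32958231-32958480, reverse strand: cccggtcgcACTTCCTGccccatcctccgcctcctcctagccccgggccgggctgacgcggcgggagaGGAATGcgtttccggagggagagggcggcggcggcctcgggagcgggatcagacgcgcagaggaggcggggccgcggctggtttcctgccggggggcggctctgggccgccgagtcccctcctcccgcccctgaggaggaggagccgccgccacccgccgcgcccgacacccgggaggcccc
The letters searched on both strands were CCGGAAGT and CAGGAAGT for ETS factors and GGAAGGAA for a pair of joined ETS cores. The motif TGANTCA stood for AP-1. TEAD factors were represented by GGAATG and SRF by the CArG box. ITGA11 and TNS1 held none of them, with a GC content of 71.2% and 76%. ITGA10 was the only one of the 31 with GGAAGGAA, here overlapping a GGAATG on the same strand, and 3.06% of all 35116 promoter windows in the table held it. ITGB1 was the only one with CAGGAAGT (2.6% of all windows) and held a separate GGAATG. Of the 31 windows, 5 held GGAATG (16.1%, beside 11.9% of all), and 2, those of ITGB6 and FLNA, held a CArG box (6.45%, beside 1.16% of all). TGANTCA was in 2 windows, those of ACTN4 and BCAR1 (6.45%, beside 6.57% of all), and CCGGAAGT in 1, that of ITGB5 (3.23%, beside 3.42% of all). A match describes letters in a window and shows no binding.

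Rescue with WT-EF addressed which of these genes an exogenous full-length fusion regulates. Of the 39 genes, 32 differed between WT-EF and iEF, 30 lower and 2 higher (ITGA7 and TNS1), beside 28.3% of all genes tested. Higher calls made up 11.4% and lower calls 16.9% of all genes here. For WT-EF and iEF, separate ranges of libraries were found in 32 of the 39 (38.2% of all genes) and calls of at least 2-fold in 21 (16.3% of all genes). All but ITGB2 of the 19 integrin subunits were called, with a median of -1.61 on the log2 scale, and 14 of the 20 focal adhesion proteins, with a median of -0.50. The 7 genes without a call were ITGB2, TLN2, FERMT2, VCL, ILK, PTK2 and ZYX. Against iLuc, 30 genes differed in WT-EF, 29 higher and ITGB2 lower (-2.36 ± 0.22, adjusted p = 1.09e-07), beside 18.3% of all genes. In WT-EF against iLuc, 9.78% of all genes were higher and 8.52% lower, and 31.4% of genes with a mean of at least 5 CPM were called. The libraries of the 2 groups did not overlap in 28 of the 39 genes (27.9% of all), and 19 of the 39 were called with at least a 2-fold change (9.55% of all). In 24 genes WT-EF was both lower than iEF and higher than iLuc, so that its level lay between the 2 by both tests. The largest remaining difference from iLuc was in ITGA11 (4.01 ± 0.29, adjusted p = 4e-09), followed by ITGB3 (3.92 ± 0.55, adjusted p = 2.88e-05), ITGA3 (3.35 ± 0.20, adjusted p = 3.57e-10) and ITGA10 (3.000 ± 0.27, adjusted p = 9.94e-08). ITGB1 (0.21 ± 0.12, adjusted p = 0.255), TLN1 (0.23 ± 0.10, adjusted p = 0.1), FLNA (0.16 ± 0.11, adjusted p = 0.4), LPP (0.29 ± 0.15, adjusted p = 0.216) and TNS1 (0.21 ± 0.15, adjusted p = 0.378) were among the 9 genes not distinguished from iLuc by the test. Without the replicate block the calls of ITGAV, TNS3, LIMS1, PTK2 and PXN against iLuc were lost, with adjusted p of 0.0665, 0.056, 0.0777, 0.116 and 0.0531. FLI1 was at a lower level in the WT-EF libraries than in iLuc, as given above, and its part in the differences from iLuc was not tested. Per the paper, the shRNA targets an untranslated region of EWS/FLI. Whether the cDNAs hold this region is not given in the sources used here. FLI1 counts may therefore not put the cDNA and the endogenous fusion on the same scale.

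**Figure D4:**
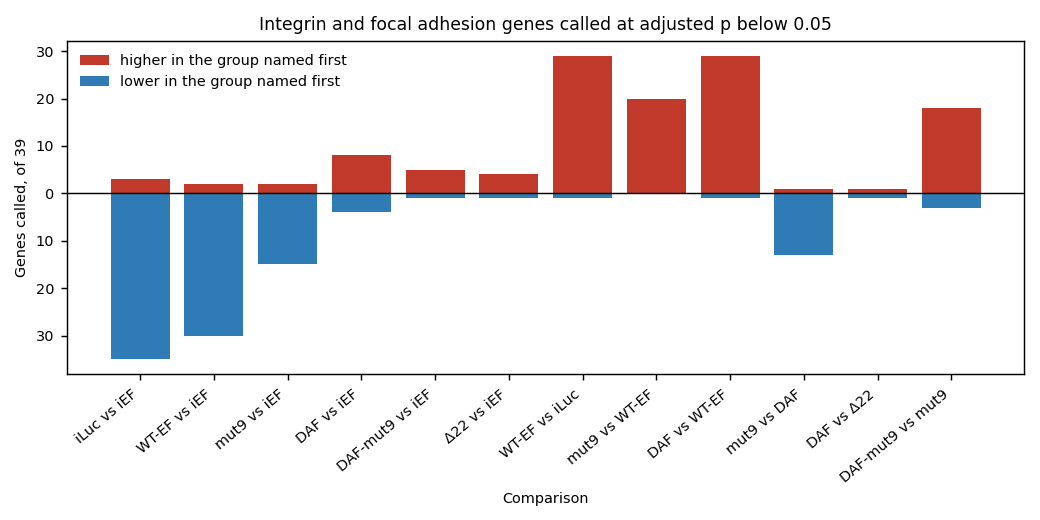
Number of the 39 genes called higher (red, upward) and lower (blue, downward) in the group named first, in each of the 12 comparisons. Calls against iEF are mostly lower and shrink from 38 in iLuc and 32 in WT-EF to 17 in mut9, while for DAF, DAF-mut9 and Δ22 there are few and most are higher.

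Rescue with mut9, whose EWS portion is shortened, changed 17 of the 39 genes against iEF, 15 lower and 2 higher (ITGA7 and TNS1), beside 14.6% of all genes. All genes gave 6.22% higher and 8.33% lower between mut9 and iEF. At least a 2-fold change was called in 10 of the 39 (9.1% of all genes), and 17 of the 39 had no overlap between the groups' libraries (26.3% of all genes). Of the 17 called genes, 13 were integrin subunits and 4 focal adhesion proteins (FLNC, TNS1, TNS3 and BCAR1), and FLNC had an adjusted p of 0.0502 without the replicate block. Set directly against WT-EF, mut9 was higher in 20 genes and lower in none, beside 6.15% of all genes, and the other 19 did not pass the test. Higher calls made up 4.95% and lower calls 1.2% of all genes here, and 12.4% of genes with a mean of at least 5 CPM were called. For mut9 and WT-EF, separate ranges of libraries were found in 28 of the 39 (25% of all genes) and calls of at least 2-fold in 9 (3.16% of all genes). The largest of these differences were in ITGB3 (2.21 ± 0.30, adjusted p = 0.000135), ITGA2 (2.16 ± 0.37, adjusted p = 0.000979), TNS3 (2.12 ± 0.49, adjusted p = 0.0109), ITGA10 (1.98 ± 0.21, adjusted p = 1.48e-05) and ITGA3 (1.69 ± 0.18, adjusted p = 1.45e-05). PARVA (0.75 ± 0.13, adjusted p = 0.000972) and TGFB1I1 (1.12 ± 0.20, adjusted p = 0.0013) were also higher in mut9. ITGA1 and ITGB4 lost their calls without the replicate block (adjusted p = 0.107 and 0.0626). The count was 8 without WT-EF replicate 2 and 10 without mut9 replicate 1. In 29 genes, 16 of them integrin subunits, the group means stood in the order iLuc, WT-EF, mut9, iEF from lowest to highest, which is 74.4% of the 39 beside 16.4% of all genes tested. This order rests on means alone, and only 15 of the 39 genes were called lower in mut9 than in iEF. It also requires a lower mean in iLuc than in iEF, where 35 of the 39 but 22.4% of all genes were called lower.

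Rescue with DAF, which carries the tyrosine substitutions, changed 12 of the 39 genes against iEF, beside 7.42% of all genes, and 8 of them were higher. In DAF against iEF, 3.41% of all genes were higher and 4.02% lower. The libraries of the 2 groups did not overlap in 22 of the 39 genes (20% of all), and 4 of the 39 were called with at least a 2-fold change (4.23% of all). The higher genes were ITGA7, ITGA4, ITGB3, TLN1, VCL, TNS1, TNS3 and PARVA. The lower genes were ITGA10, ITGA11, ITGA6 and ITGB4, of which ITGB4 changed most (-2.84 ± 0.43, adjusted p = 0.000266). Of those 8 higher genes, ITGA7 and TNS1 were also higher in iLuc than in iEF and the other 6 were lower there. ITGA7, ITGB3, ITGB4, PARVA and TNS1 kept their DAF calls in every alternative but a 2-fold threshold, which PARVA and TNS1 missed, while ITGA4, VCL and TNS3 lost theirs without the replicate block (adjusted p = 0.16, 0.0527 and 0.11), and without DAF replicate 2 the count was 7. TLN1 had an adjusted p of 0.0656 without iEF replicate 2. Directly against WT-EF, DAF was higher in 29 genes and lower in 1, ITGA7 (-1.05 ± 0.22, adjusted p = 0.0014), beside 24.9% of all genes. All genes gave 14.3% higher and 10.6% lower between DAF and WT-EF, and 43.6% of genes with a mean of at least 5 CPM were called. At least a 2-fold change was called in 20 of the 39 (12.8% of all genes), and 32 of the 39 had no overlap between the groups' libraries (40.5% of all genes). TNS3 (5.07 ± 0.46, adjusted p = 9.76e-08) and ITGB3 (4.40 ± 0.30, adjusted p = 3.3e-09) differed most, followed by ITGA2 (3.07 ± 0.38, adjusted p = 3.78e-06), ITGA3 (2.95 ± 0.19, adjusted p = 2.59e-09) and ITGA10 (2.80 ± 0.22, adjusted p = 1.5e-08). ITGB4 was not distinguished between DAF and WT-EF (-0.12 ± 0.42, adjusted p = 0.876), nor was TNS1 (-0.15 ± 0.15, adjusted p = 0.513).

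In the direct comparison of mut9 with DAF, mut9 was lower in 13 genes and higher in 1, beside 6.61% of all genes. Higher calls made up 3.13% and lower calls 3.48% of all genes here, and 12.3% of genes with a mean of at least 5 CPM were called. For mut9 and DAF, separate ranges of libraries were found in 28 of the 39 (25.9% of all genes) and calls of at least 2-fold in 5 (3.3% of all genes). The higher gene was ITGB4 (1.60 ± 0.41, adjusted p = 0.0208). The lower ones included TNS3 (-2.94 ± 0.39, adjusted p = 6.78e-05), ITGB3 (-2.19 ± 0.26, adjusted p = 1.94e-05), ITGA3 (-1.26 ± 0.18, adjusted p = 0.000131), ITGA4 (-1.15 ± 0.19, adjusted p = 0.000632), PARVA (-0.86 ± 0.13, adjusted p = 0.000234) and BCAR1 (-0.79 ± 0.10, adjusted p = 6.78e-05). The count was 7 with mut9 replicate 2 left out and 9 with either replicate 1 or replicate 2 of DAF left out, and the ITGB4 call was among those lost.

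Δ22 keeps the FLI portion without that of EWS. Of the 39 genes, 5 differed from iEF, beside 2.67% of all genes, with ITGA7, ITGB3, ITGB8 and VCL higher and ITGB2 lower. In Δ22 against iEF, 0.881% of all genes were higher and 1.79% lower. The libraries of the 2 groups did not overlap in 9 of the 39 genes (14.2% of all), and 3 of the 39 were called with at least a 2-fold change (1.76% of all). Only ITGB3 (1.73 ± 0.25, adjusted p = 0.000834) kept its call in every alternative, and the count was 2 without the replicate block, where ITGB2, ITGB8 and VCL had adjusted p of 0.144, 0.0596 and 0.0667, and 1 without Δ22 replicate 3. Without iEF replicate 2 the calls of ITGB2 and ITGB8 were lost (adjusted p = 0.125 and 0.156). DAF and Δ22 differed in 2 genes, beside 0.972% of all genes. All genes gave 0.789% higher and 0.183% lower between DAF and Δ22, and 1.61% of genes with a mean of at least 5 CPM were called. At least a 2-fold change was called in 0 of the 39 (0.694% of all genes), and 14 of the 39 had no overlap between the groups' libraries (13.4% of all genes). TNS1 was higher in DAF (0.91 ± 0.15, adjusted p = 0.00211) and ITGA10 lower (-0.96 ± 0.20, adjusted p = 0.0155), and without the replicate block only TNS1 was called. The largest log2 difference of the 39, -1.57 in ITGB4, did not pass the test. Its libraries were at 5.59, 2.41 and 5.38 CPM in DAF, below all those of Δ22 at 15.5, 13.1 and 12.4. ITGB3 (-0.37 ± 0.24, adjusted p = 0.76), VCL (-0.04 ± 0.11, adjusted p = 0.973), PARVA (0.31 ± 0.13, adjusted p = 0.436) and ITGA7 (0.13 ± 0.23, adjusted p = 0.956) were not distinguished between them, with 95% intervals of the log2 difference of -0.89 to 0.16, -0.29 to 0.20, 0.04 to 0.59 and -0.37 to 0.62.

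DAF-mut9 was read from the columns named mut9d, and its values depend on this reading. It differed from iEF in 6 of the 39 genes, beside 3.4% of all genes, with ITGA7, ITGB3, ITGB8, VCL and PARVA higher and ITGB2 lower. Higher calls made up 1.26% and lower calls 2.14% of all genes here. For DAF-mut9 and iEF, separate ranges of libraries were found in 15 of the 39 (17.4% of all genes) and calls of at least 2-fold in 3 (2.12% of all genes). The count was 1 without its replicate 1, 1 without its replicate 2 and 2 without its replicate 3, with ITGB3 called in each. PARVA had an adjusted p of 0.0837 without the replicate block, and without iEF replicate 2 the calls of ITGB8 and PARVA were lost (adjusted p = 0.106 and 0.141). Against mut9, which shares its shortened EWS portion, DAF-mut9 was higher in 18 genes and lower in 3, beside 9.83% of all genes. In DAF-mut9 against mut9, 5.15% of all genes were higher and 4.68% lower, and 16.8% of genes with a mean of at least 5 CPM were called. The libraries of the 2 groups did not overlap in 31 of the 39 genes (29.8% of all), and 12 of the 39 were called with at least a 2-fold change (5.64% of all). ITGA8 (2.91 ± 0.52, adjusted p = 0.000674), TNS3 (2.78 ± 0.39, adjusted p = 4.44e-05), ITGB3 (2.61 ± 0.26, adjusted p = 8.14e-07), ITGA10 (1.76 ± 0.20, adjusted p = 4.58e-06) and ITGB8 (1.62 ± 0.27, adjusted p = 0.000382) rose most. TNS1 (-1.10 ± 0.15, adjusted p = 3.8e-05), ITGB2 (-1.04 ± 0.22, adjusted p = 0.00357) and ITGA7 (-0.96 ± 0.23, adjusted p = 0.00741) fell. The calls of ITGA9, VCL and FLNC were lost without the replicate block (adjusted p = 0.0922, 0.0728 and 0.0592).

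**Figure D5:**
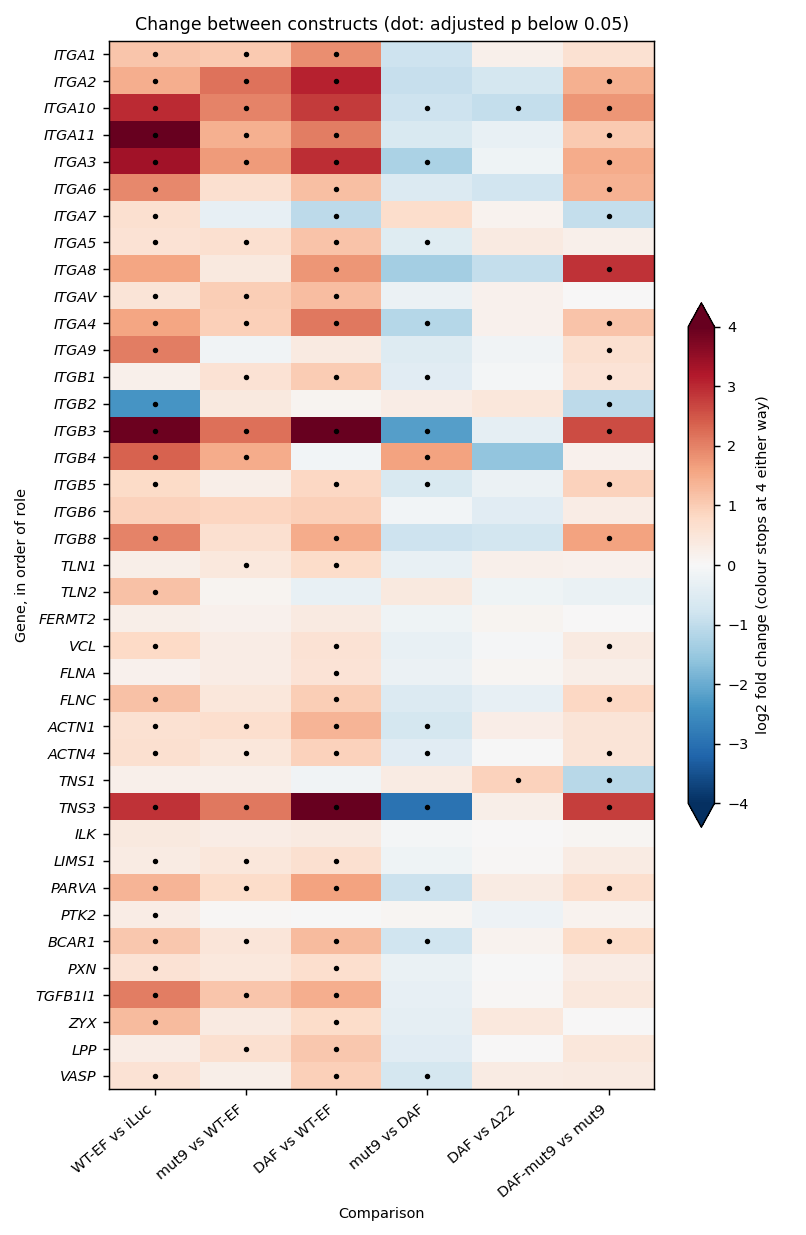
Log2 fold change of the 39 genes (rows) in 6 comparisons between groups other than iEF (columns), with red for higher and blue for lower in the group named first and a dot where the adjusted p was below 0.05. The WT-EF against iLuc, mut9 against WT-EF and DAF against WT-EF columns are mostly red, mut9 against DAF is mostly pale blue, and DAF against Δ22 has dots at ITGA10 and TNS1 only.

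Ligands of these receptors were looked at beside them, from a list of 27 genes. In iLuc against iEF, 23 were lower and none higher, with a median log2 fold change of -2.23. SPP1 (osteopontin, an RGD ligand of alpha-V integrins) was at 0.334, 0.265 and 0.376 CPM in iLuc and 199, 67.8 and 97.3 in iEF (-8.45 ± 0.68, adjusted p = 2.43e-09). THBS1 (thrombospondin 1) was at 1.18, 1.04 and 0.877 CPM in iLuc, 79.3, 95.01 and 88.6 in iEF and 5.55, 4.86 and 6.14 in WT-EF (-6.40 ± 0.18, adjusted p = 2.89e-15 in iLuc), and LAMA4, a laminin chain, differed by -6.95 ± 0.34, adjusted p = 1.82e-12. In all 3 genes the iLuc libraries lay far below the iEF libraries. THBS1 was higher than in iEF in DAF (0.65 ± 0.13, adjusted p = 0.00338), DAF-mut9 (0.77 ± 0.13, adjusted p = 0.00229) and Δ22 (0.62 ± 0.13, adjusted p = 0.0144). The ligand list had 22 lower genes in WT-EF, 17 in mut9 and 7 in DAF, with 3 higher in DAF, and it had 2 higher and 2 lower in each of DAF-mut9 and Δ22. Of all genes tested, 22.4% were lower in iLuc, 16.9% in WT-EF, 8.33% in mut9 and 4.02% in DAF, and 3.41% were higher in DAF.

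From a list of 40 other focal adhesion adaptors, kinases and linkers, 22 were lower and 5 higher in iLuc, with a median of -0.47. FHL2, a LIM protein that binds integrin tails, was 19.4-fold lower in iLuc (-4.28 ± 0.19, adjusted p = 6.75e-13), and FERMT1 (kindlin-1, -3.40 ± 0.39, adjusted p = 3.81e-07) and LPXN (leupaxin, -2.78 ± 0.32, adjusted p = 5.18e-07) were also lower. CAV1 and CAV2, the caveolins, were higher, at 2016, 2209 and 1903 CPM against 626, 570 and 559.8 for CAV1 (1.80 ± 0.13, adjusted p = 6.94e-10) and 2.12 ± 0.20, adjusted p = 1.8e-08 for CAV2, as was PARVG, the parvin of blood cells (1.43 ± 0.28, adjusted p = 0.000326). Of the 40, 16 were lower and 5 higher in WT-EF, 5 lower and 6 higher in mut9, none lower and 6 higher in DAF, none lower and 2 higher in DAF-mut9, and none was called in Δ22. Of all genes with a mean of at least 5 CPM, 60.3% were called in iLuc, 44.3% in WT-EF, 21.9% in mut9, 12.1% in DAF, 5.24% in DAF-mut9 and 4.08% in Δ22. The 7 remaining integrin subunits (ITGA2B, ITGAD, ITGAE, ITGAL, ITGAM, ITGAX and ITGB7) had 1 higher and 2 lower in iLuc, beside 41.1% of all genes called. Their median log2 fold change in iLuc was 0.13, beside -3.08 for the 19 subunits above. Against iEF their median was -0.76 in WT-EF, -0.40 in mut9, -0.59 in DAF, -1.37 in DAF-mut9 and -0.99 in Δ22. No gene of these 7 was both called in iLuc and at a mean of at least 5 CPM, so their medians rest partly on weakly expressed or uncalled genes.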

How the data were processed

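RNA-seq libraries were made from A673 cells in 7 groups of 3. Per the labels and the study's methods, the authors aligned paired-end reads to hg19 with STAR and deposited raw counts per gene from HTSeq. Annotation release and strand setting are not given in the sources used here. A second deposited table holds count signal that the authors adjusted for replicate set with ComBat, and it was used in 1 alternative only. Another table holds the authors' own comparisons and was not used.

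Counts were tested with edgeR 4.0.16 (R 4.3.3). Genes averaging 1 or more counts over the libraries were kept (30549 of 57820, with 5 summary lines left out), libraries were scaled by TMM, and the quasi-likelihood test was fitted over all 21 libraries with group and replicate set as terms. The replicate set was included because the study adjusted for it. In 10779 genes with at least 5 CPM, deviations of same-numbered libraries had a median correlation of 0.161 (43 of 63 pairs over 0.1), and those of different numbers -0.0953. The p-values were adjusted over all genes tested by Benjamini-Hochberg. Each SE of a log2 fold change is its absolute value divided by the square root of the test's F statistic. Intervals use this SE and 12 residual degrees of freedom, and both are approximate. In data simulated for iLuc against iEF, the fit recovered 68% of 2-fold and 96% of 4-fold changes, with 3 false calls among 167. The simulation held no difference between replicate sets and few changed genes, so it cannot check the replicate term. Exact intervals for low counts cover counting error only.

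The 39 genes, the adhesion lists and the tests were chosen with earlier results of these data known. All 39 genes are named. Values in every library are given for those with at least a 2-fold change in iLuc or a call in DAF, DAF-mut9 or Δ22 against iEF, and list genes are up to 3 each way with a mean of at least 5 CPM. Promoters are those of the table with the largest change each way among genes called in iLuc with a mean of at least 5 CPM. ITGA10 and ITGB1 were added after the motif search. The alternatives were DESeq2 1.42.0 and its size factors, the filterByExpr filter, no low-count filter, no replicate block, the groups compared alone, a 2-fold threshold, ComBat values with limma 3.58.1 (log2 with a pseudocount of 1), and each of the 21 libraries left out. How many alternatives kept a gene's call is counted without the 2-fold threshold. Each library was left out for every comparison, also where its group was not compared. Such refits keep all libraries of the compared groups, so the number of alternatives that kept a call can overstate its stability. An initial run used robust dispersion estimation, and it was kept as an alternative chosen after seeing the data.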

Additional observations from a re-analysis of the deposited data

How the results depend on the processing

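Of 227 calls of the 39 genes over 12 comparisons, 6556 values were recomputed under 29 alternatives other than the 2-fold threshold, of which 6171 kept call and direction, 385 lost the call and 0 reversed. Many of these values come from refits without a library of a group outside the comparison, which keep all compared libraries, so the total can overstate stability. Requiring a 2-fold change left 21 genes in WT-EF, 10 in mut9, 4 in DAF, 3 in DAF-mut9 and 3 in Δ22 against iEF, 19 for WT-EF against iLuc, 9 for mut9 against WT-EF, 5 for mut9 against DAF, 0 for DAF against Δ22 and 12 for DAF-mut9 against mut9. With no low-count filter the counts were 11 for DAF-mut9 and 10 for Δ22 against iEF, 23 for mut9 against DAF and 7 for DAF against Δ22. With no replicate block they were 2 for Δ22 against iEF and 1 for DAF against Δ22, and in the other 10 comparisons the count moved by less than 1.5 times (calls lost with it are given beside their genes). With only the groups compared they were 2 for Δ22 against iEF and 7 for DAF against Δ22. ComBat-adjusted values with limma gave 3 for Δ22 against iEF, 11 for mut9 against WT-EF, 9 for mut9 against DAF and 1 for DAF against Δ22. Leaving out 1 library at a time gave 36 to 38 genes in iLuc, 29 to 32 in WT-EF, 12 to 19 in mut9, 7 to 15 in DAF, 1 to 7 in DAF-mut9 and 1 to 5 in Δ22 against iEF. It gave 25 to 30 for WT-EF against iLuc, 8 to 23 for mut9 against WT-EF, 29 to 31 for DAF against WT-EF, 7 to 19 for mut9 against DAF, 1 to 4 for DAF against Δ22 and 15 to 24 for DAF-mut9 against mut9. The cause of these shifts was not tested, apart from the stricter threshold and fewer libraries by construction. Robust dispersion estimation, chosen after seeing the data, moved no count by over 1.5 times. Counts as low as those of ITGB3 and TNS3 in iLuc limit the size of their differences.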
